A study of Mus musculus with 42 samples.

Results

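Hepatocytes build triglyceride by adding fatty acyl chains, one after another, to a glycerol backbone. GPAT1, encoded by Gpam, puts the first chain on glycerol-3-phosphate at the outer mitochondrial membrane, and the acyltransferases encoded by Agpat2 and Agpat3 turn the resulting lysophosphatidate into phosphatidate. Lipins, encoded by Lpin1 and Lpin2, remove the phosphate to give diacylglycerol, which DGAT1 and DGAT2 acylate to triglyceride, while the monoacylglycerol acyltransferase encoded by Mogat1 reaches diacylglycerol by another route. Microsomal triglyceride transfer protein, encoded by Mttp, then loads triglyceride onto apolipoprotein B so that the liver can secrete it as very low density lipoprotein (VLDL).

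These 9 genes were chosen by name for their place in this pathway, not for their values, and were read out of a table of 54446 genes. All 9 were found, 8 of them had counts and were tested, and Lpin2 was at 0 counts in every mouse. The livers came from 42 female APOE*3-Leiden mice, a transgenic strain that carries a human APOE variant which slows the clearance of lipoprotein remnants, so that the reference mice carried it too. The Chow group (n = 10) stayed on maintenance chow as a healthy reference, and its age was not given in the labels. The WTD group (n = 16) was 8 to 14 weeks old when it began a 3-week run-in on a Western-type diet with 15% cocoa butter, 40.5% sucrose and 1% cholesterol, then ate it for 32 weeks, with 0.05% sodium cholate added from week 22. The WTD+Atorvastatin group (n = 16) had the same run-in and diet, with atorvastatin, an inhibitor of cholesterol synthesis, mixed in at 3.0 mg/kg/day and at 4.5 mg/kg/day from week 5. Each library was whole liver from 1 mouse, so fewer cells of a type and less RNA per cell cannot be told apart. Chow-fed mice carried 1 series of mouse labels and both WTD-fed groups another, so the label series and the diet cannot be told apart.

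Counts assigned to genes ranged from 15661381 to 36224054 per mouse. Gene positions are from GENCODE vM21 on GRCm38. Levels are given as CPM (counts scaled to library size) after TMM scaling, and a gene was called changed at an adjusted p under 0.01 in edgeR's quasi-likelihood test over 15574 genes. The mean log2(CPM + 0.1) of 7 hepatocyte markers ran from 12.57 to 13.18 in chow-fed mice, from 11.51 to 12.43 in WTD-fed mice and from 11.68 to 12.65 in atorvastatin-treated mice, which shows liver tissue in all 3 groups and a lower marker level on the diet. That of 13 cholesterol synthesis genes, a check of the drug chosen afterwards, had medians of 7.44, 5.09 and 6.09 in the same order. A pair of libraries stood apart. WTD replicate 15 had the highest hepatocyte marker level (12.43) and the lowest lipid-associated macrophage marker level (6.50) of its group, and WTD+Atorvastatin replicate 7 had the lowest cholesterol synthesis level of its group (4.68, against 5.33 or more in the other treated mice). The hepatocyte level of the former lay inside the treated range and its macrophage level just below the lowest treated mouse (6.51), the cholesterol synthesis level of the latter lay inside the WTD range, and whether their labels were exchanged was not tested. They are kept under their labels, so a lowest or highest value held by either of them rests on that label, and calls are also given without both. Both were picked from values measured here, each for lying near the other WTD-fed group. Leaving them out can therefore widen the difference between those groups and is no independent check.

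Gpam, Lpin1 and Mttp were higher in treated than in WTD-fed mice, and the 250 bases before a RefSeq start site of each (build GRCm38.p6, all on the minus strand, read 5′ to 3′ toward the gene) are shown so that the letters in front of them can be seen. Capitals mark a CCAAT box, here read as ATTGG because it is on the other strand. Gpam has another RefSeq start site as well, and the window of Mttp also holds the start of Trmt10a on the opposite strand. The Mttp window lies inside the Mttp gene of GENCODE, which on the minus strand starts farther upstream, at 138144968. Dgat2, the other member that rose, had no sequence in the table used.
Gpam, chr19:55127239-55127488: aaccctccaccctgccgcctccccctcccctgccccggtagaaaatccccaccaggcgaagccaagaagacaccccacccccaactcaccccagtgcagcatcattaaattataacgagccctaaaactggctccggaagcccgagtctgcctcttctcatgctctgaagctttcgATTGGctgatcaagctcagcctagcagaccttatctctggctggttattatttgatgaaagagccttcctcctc
Lpin1, chr12:16610967-16611216: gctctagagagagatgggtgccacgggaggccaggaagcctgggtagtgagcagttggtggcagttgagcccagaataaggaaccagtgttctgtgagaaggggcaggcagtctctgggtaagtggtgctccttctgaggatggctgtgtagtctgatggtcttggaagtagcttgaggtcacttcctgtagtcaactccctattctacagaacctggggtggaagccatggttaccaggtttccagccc
Mttp, chr3:138143419-138143668: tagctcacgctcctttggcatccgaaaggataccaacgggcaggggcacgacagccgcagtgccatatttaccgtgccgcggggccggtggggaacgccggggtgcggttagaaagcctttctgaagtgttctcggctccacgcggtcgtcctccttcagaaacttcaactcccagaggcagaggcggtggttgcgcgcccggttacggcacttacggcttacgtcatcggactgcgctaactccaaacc
A CCAAT box (CCAAT on either strand) lay 74 to 70 bases before the Gpam start site shown, and none lay in the window of the other Gpam start site. Lpin2 was the other member with this box, and 33.8% of 32851 RefSeq promoter windows of this length hold one. The sterol regulatory element core TCACNCCAC was in 1.05% of windows and in those of none of the 7 members with a sequence, and the E-box CACGTG in 6.02% and, of the members, in Lpin2. The absence of these letters from a window says nothing of the factors that bind them.

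Which steps of triglyceride assembly changed on the Western-type diet was asked first. As compared to chow-fed mice, WTD-fed mice had less mRNA of Dgat2, Agpat2 and Agpat3, and no member was called higher. The 3 lower members of 8 tested stand against 16.0% of all tested genes called lower and 33.5% called in either direction, and the members' median was -0.16 on the log2 scale where that of all genes was 0.03. Of the 8 fitted values 7 were negative, and Gpam was the exception at 0.39. No member had an unadjusted p under 0.05 in the upward direction, and DESeq2 called 2 members and limma-voom 3. Without the 2 libraries that stood apart the same 3 members were called. With the hepatocyte marker level as a covariate, an alternative chosen after seeing the data, none of the 8 was called, Dgat2 turned from -0.51 to 0.39 (adjusted p = 0.12, edgeR), Lpin1 turned from -0.15 to 0.91 (adjusted p = 0.034) and Gpam moved from 0.39 to 1.61 (adjusted p = 0.019). Of all 15574 tested genes 570 were called in that fit, where 5224 were called without the covariate. The marker level of chow-fed mice did not overlap that of WTD-fed mice, so in this comparison the covariate and the diet cannot be told apart.

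The comparison of atorvastatin-treated with WTD-fed mice asks which of these genes differ when the statin is added to the same diet. Gpam, Lpin1, Dgat2 and Mttp were higher in treated mice, by 2.45-fold, 1.63-fold, 1.35-fold and 1.30-fold, and all 8 fitted values were positive, with a members' median of 0.28 on the log2 scale where that of all genes was 0.00. Of all tested genes 4.84% were called higher and 7.10% in either direction. That background depends on scaling, since 754 of 1106 calls were higher with TMM, 582 of 1061 with RLE size factors and 694 of 1363 with DESeq2, and the 4 members were called with each. Without the 2 libraries that stood apart Agpat3 was called as well (log2 fold change 0.25, adjusted p = 0.00056, edgeR), which made 5. Calls over all genes were then 1715, where 1106 were made with both libraries kept. With the hepatocyte marker level as a covariate, no member was called and of all genes 11 were. The log2 fold change of Gpam was then 0.74 (adjusted p = 0.23, edgeR), that of Lpin1 0.24 (adjusted p = 0.73), that of Mttp 0.23 (adjusted p = 0.29) and that of Dgat2 0.05 (adjusted p = 0.95). The ranges of the marker level in these 2 groups overlap, but the highest WTD-fed value (12.43) is that of replicate 15 and the next is 12.04. Medians were 11.82 in WTD-fed and 12.42 in treated mice, and 5 of 7 markers were called higher in treated mice. The covariate and the treatment can therefore be told apart only in part.

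In treated as compared to chow-fed mice 1 member was called, Gpam, which was 3.21-fold higher, where 14.2% of all genes were called higher and 25.0% in either direction. With the hepatocyte marker level as a covariate 4 members were called, Gpam, Lpin1, Mttp and Dgat2, and Dgat2 turned from -0.08 to 0.44 (adjusted p = 0.0028, edgeR). Of all 15574 tested genes 1349 were called in that fit, where 3893 were called without the covariate. The marker levels barely overlap here, at 12.57 to 13.18 in chow-fed and 11.68 to 12.65 in treated mice. The covariate and the group can therefore hardly be told apart in this comparison either. The 3 comparisons share their groups, so their values are set side by side and are not independent of each other. The plot of levels by mouse shows the 8 counted members.

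**Figure D1:**
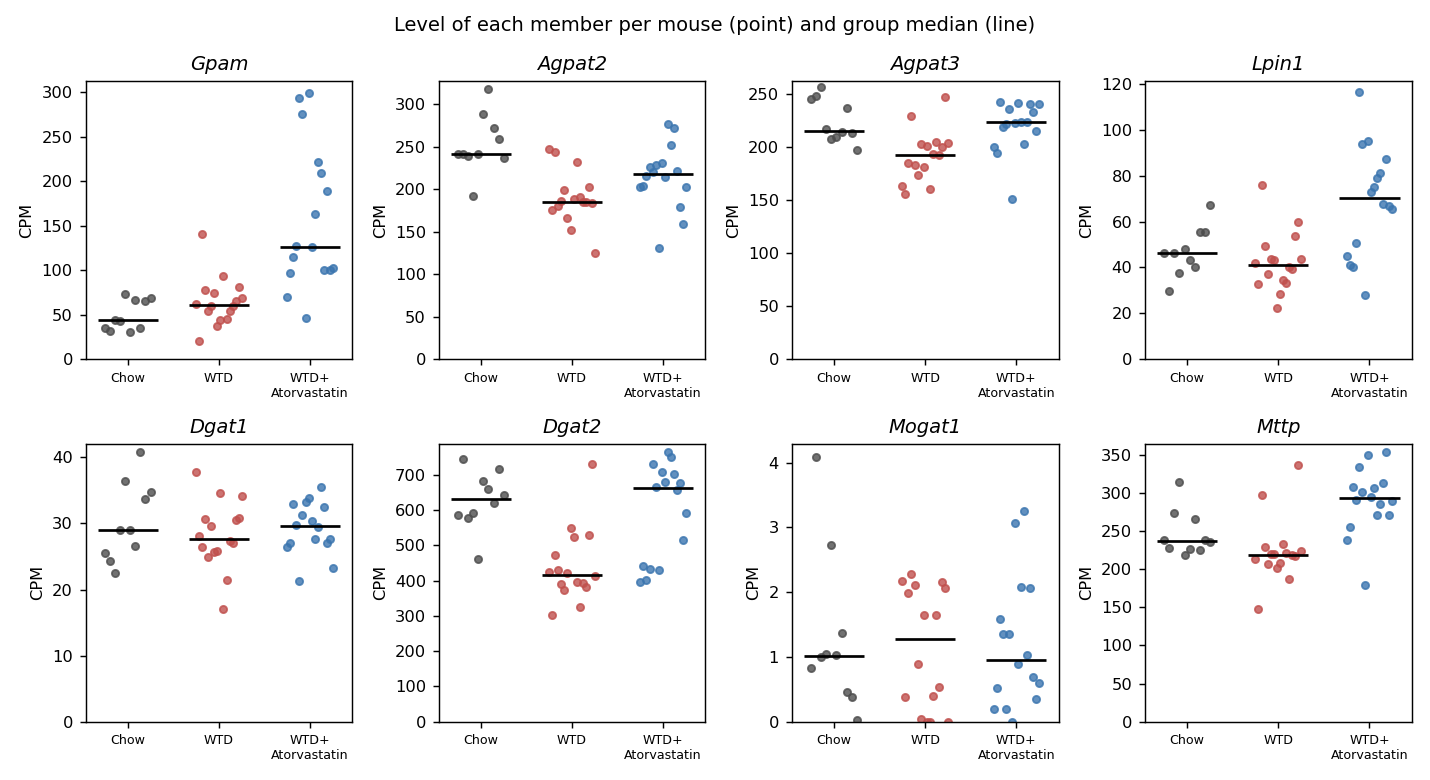
Level of each counted member (CPM, linear axis from 0) in each mouse (points, ordered by replicate) with the group median (line), for Chow (n = 10), WTD (n = 16) and WTD+Atorvastatin (n = 16). Treated mice spread from 45.8 to 298 CPM for Gpam and from 395 to 765 CPM for Dgat2, and no member separates any pair of groups completely.

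Gpam (ENSMUSG00000024978.10), on chromosome 19 from 55067268 to 55127238 on the minus strand, had the largest fold change of the members with the statin. Its level was 30.5, 43.5 and 73.4 CPM at the lowest, median and highest of 10 chow-fed mice, 20.3, 60.7 and 140 CPM in 16 WTD-fed mice and 45.8, 126 and 298 CPM in 16 treated mice. Treated mice overlapped with the others: 15 of 16 were above the WTD median and 7 were above every WTD-fed mouse, and the lowest treated value was that of replicate 7. The log2 fold change of treated over WTD-fed mice was 1.29 ± 0.23 (SE, adjusted p = 0.00015, edgeR) and over chow-fed mice 1.68 ± 0.28 (adjusted p = 5.0e-06). For WTD over chow-fed mice it was 0.39 ± 0.26 (adjusted p = 0.24), a 95% interval of -0.12 to 0.91. The coefficient of variation among treated mice was 50.9%, as compared to 34.6% in chow-fed and 41.8% in WTD-fed mice.

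The next step is carried by Agpat2 (ENSMUSG00000026922.13, chromosome 2, 26593057 to 26604417, minus strand) and Agpat3 (ENSMUSG00000001211.15, chromosome 10, 78269178 to 78352489, minus strand). Agpat2, whose loss causes lipodystrophy in mice and people, was at 191, 241 and 317 CPM (lowest, median, highest) in chow-fed, 124, 185 and 247 CPM in WTD-fed and 131, 218 and 277 CPM in treated mice. Of 16 WTD-fed mice 11 were below every chow-fed mouse. The log2 fold change of WTD over chow was -0.41 ± 0.09 (SE, adjusted p = 0.00024, edgeR), and that of treated over WTD-fed mice, 0.18 ± 0.08, did not pass (adjusted p = 0.17). Agpat3 was at 197, 215 and 257 CPM in chow-fed, 156, 193 and 247 CPM in WTD-fed and 151, 223 and 243 CPM in treated mice, and 9 of 16 WTD-fed mice were below every chow-fed mouse. Its change on the diet was small, at -0.22 ± 0.07 (adjusted p = 0.0077), and the call was lost in 6 of 14 alternatives and in 11 of 42 fits that left out 1 mouse. The adjusted p was 0.014 with DESeq2, 0.020 with RLE size factors, 0.016 without a filter on low counts, 0.028 with a floor of 10 counts per mouse, 0.018 in a fit of these 2 groups alone and 0.96 with the hepatocyte marker level as a covariate. Treated over WTD-fed mice, Agpat3 was at 0.19 ± 0.06 (adjusted p = 0.032). Agpat2 lies inside Gm20532, a gene on the opposite strand, and had 2880 to 8199 counts per mouse.

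Of the lipins, Lpin1 (ENSMUSG00000020593.15, chromosome 12, 16535669 to 16610966, minus strand), which also acts with PPAR alpha as a nuclear co-activator, was at 29.7, 46.2 and 67.1 CPM (lowest, median, highest) in chow-fed, 22.1, 40.9 and 75.8 CPM in WTD-fed and 28.0, 70.3 and 117 CPM in treated mice. Of 16 treated mice 14 were above the WTD median, and the 2 that were not were replicates 3 and 7. The log2 fold change of treated over WTD-fed mice was 0.70 ± 0.15 (SE, adjusted p = 0.0013, edgeR). That of WTD over chow-fed mice was -0.15 ± 0.17 (adjusted p = 0.53). Over chow-fed mice, treated mice were at 0.56 ± 0.18, just short of the threshold (adjusted p = 0.012). This difference passed with DESeq2 (0.0033), limma-voom (0.0079), a floor of 10 counts per mouse (0.0060) and without the 2 libraries that stood apart (0.0026). It had a larger adjusted p without 9 libraries that missed weak genes (0.083, log2 fold change 0.44) and with that measure as a covariate (0.056). The call of Lpin1 for treated over WTD-fed mice was lost without the same 9 libraries (3 Chow, 5 WTD and 1 WTD+Atorvastatin), which had no count for over 20% of genes averaging 1 to 2 CPM in their group (adjusted p = 0.014, log2 fold change 0.60).

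Lpin2 (ENSMUSG00000024052.17, chromosome 17, 71182560 to 71249817, plus strand) had 0 counts in all 42 mice and no level can be given. The gene lies whole inside Gm26561, a long noncoding RNA on the same strand (70878078 to 71393284) that drew 32885 counts over the 42 mice. Of 452 protein-coding genes that lie inside another gene on the same strand, 451 had 0 counts in all mice, as compared to 19.8% of 21466 other protein-coding genes. The 0 was therefore not read as a level of Lpin2, and the macrophage marker Itgam, also at 0 in all mice, was left aside in the same way.

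Both DGAT enzymes make the last bond of triglyceride. Dgat2 (ENSMUSG00000030747.5, chromosome 7, 99153658 to 99182719, minus strand), the enzyme tied to newly made fatty acids in liver, was at 462, 632 and 746 CPM (lowest, median, highest) in chow-fed, 303, 417 and 730 CPM in WTD-fed and 395, 661 and 765 CPM in treated mice. Of 16 WTD-fed mice 11 were below every chow-fed mouse, and the highest WTD-fed value was that of replicate 15, with the next at 547 CPM. The log2 fold change was -0.51 ± 0.11 (SE, adjusted p = 0.00022, edgeR) for WTD over chow and 0.44 ± 0.10 (adjusted p = 0.0021) for treated over WTD-fed mice. For treated over chow-fed mice it was -0.08 ± 0.12 (adjusted p = 0.65, 95% interval -0.30 to 0.15). Dgat1 (ENSMUSG00000022555.12, chromosome 15, 76502015 to 76511953, minus strand) ran from 17.1 to 40.9 CPM over all mice, with group medians of 29.0, 27.7 and 29.7 CPM. Dgat1 passed in no comparison, at -0.10 ± 0.10, 0.06 ± 0.09 and -0.05 ± 0.10 on the log2 scale, and the groups overlapped.

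A ratio within a library does not depend on library scaling, so the ratio of 2 members that do the same step shows whether they changed unequally. The mean log2 ratio of Dgat2 to Dgat1 was 4.38 ± 0.37 (SD, n = 10) in chow-fed, 3.95 ± 0.34 (n = 16) in WTD-fed and 4.31 ± 0.41 (n = 16) in treated mice. WTD-fed minus chow-fed mice, it differed by -0.44 ± 0.15 (SE, adjusted p = 0.034, two-sided permutation test over 6 ratios), with 14 of 16 mice below the chow median. It was higher in treated than in WTD-fed mice by 0.36 ± 0.13 (adjusted p = 0.034, permutation test), with 12 of 16 mice above the WTD median. The hepatocyte covariate was applied to single genes and not to the ratio, and under it Dgat2 was at 0.39 and Dgat1 at 0.020 for WTD over chow. The ratio of Agpat2 to Agpat3 differed by -0.19, -0.02 and -0.21 in the 3 comparisons (adjusted p = 0.22, 0.87 and 0.072, permutation test). No ratio had an adjusted p under the 0.01 used for single genes. Only the 2 differences of Dgat2 to Dgat1 at 0.034 were under 0.05.

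Mogat1 (ENSMUSG00000012187.13, chromosome 1, 78510991 to 78538173, plus strand), known to rise in steatotic liver, was at the edge of detection. It had 0 to 106 counts per mouse and at most 4.09 CPM, with 0 counts in 3 WTD-fed mice and 1 treated mouse. Group medians were 1.01, 1.27 and 0.954 CPM, and the groups overlapped throughout. Its log2 fold changes of -0.17 ± 0.69, 0.07 ± 0.61 and -0.10 ± 0.69 did not pass and changed sign with the processing, so a difference was not detectable at this depth. The 95% interval for WTD over chow, -1.52 to 1.18, covers both directions.

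Mttp (ENSMUSG00000028158.14, chromosome 3, 138089854 to 138144968, minus strand), without which apolipoprotein B is degraded, was at 219, 237 and 315 CPM (lowest, median, highest) in chow-fed, 147, 219 and 337 CPM in WTD-fed and 179, 293 and 354 CPM in treated mice. Of 16 treated mice 15 were above the WTD median, all but replicate 7, and the highest WTD-fed mouse was replicate 15. The log2 fold change of treated over WTD-fed mice was 0.38 ± 0.08 (SE, adjusted p = 0.00072, edgeR). WTD over chow-fed mice it was -0.14 ± 0.09 (adjusted p = 0.22). Over chow-fed mice, treated mice were at 0.24 ± 0.09 (adjusted p = 0.038), which passed without the 2 libraries that stood apart (adjusted p = 0.0032) and with limma-voom (adjusted p = 0.0080). It was at 0.16 (adjusted p = 0.19) without the 9 libraries that missed weak genes, and the adjusted p was 0.074 with that measure as a covariate and 0.057 with upper-quartile scaling.

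**Figure D2:**
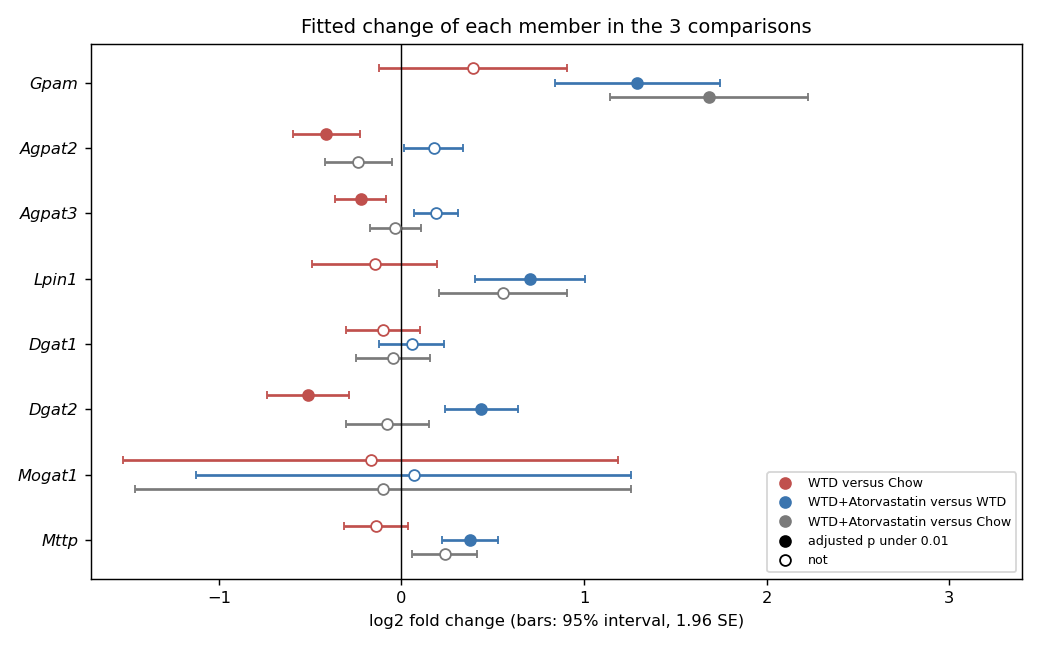
Fitted log2 fold change of each tested member (edgeR, all 42 mice) in the 3 comparisons, with 95% intervals. Filled points have an adjusted p under 0.01 over all genes. Dgat2 and Agpat2 lie left of 0 for WTD versus Chow, Gpam lies farthest right for both comparisons of treated mice, and Mogat1 has the widest intervals.

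Per kilobase of exon, which allows genes to be compared, Dgat2 was the most abundant member in each group, at 204 ± 26 CPM per kb (SD, n = 10) in chow-fed, 143 ± 34 (n = 16) in WTD-fed and 193 ± 44 (n = 16) in treated mice. Agpat2 followed at 119, 89.2 and 101 CPM per kb, then Mttp at 39.7, 36.1 and 46.8 and Agpat3 at 28.8, 24.7 and 28.2. In chow-fed mice the first 4 places did not overlap with their neighbours. In both WTD-fed groups Dgat2 overlapped with Agpat2 and Mttp with Agpat3. Further down the order, Dgat1 was at 9.91, 9.25 and 9.61 and Lpin1 at 4.85, 4.38 and 7.15 CPM per kb. Gpam, at 7.39 CPM per kb in chow-fed mice, stood below Dgat1 there and above it in the other groups at 9.70 and 23.7, and it overlapped with its neighbours in all 3 groups. Mogat1 was last at 0.832, 0.736 and 0.771 CPM per kb and did not overlap with Lpin1.

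The largest gap in Dgat2 among the treated mice was 77.7 CPM, 21.0% of its range. It lay between 6 mice at 395 to 514 CPM (replicates 1, 2, 3, 4, 7 and 15) and 10 mice at 592 to 765 CPM. A gap of this size can arise among 16 values with no split, and whether the mice form 2 sets was not tested. Of the treated mice, the same 6 had the lowest hepatocyte marker levels (11.68 to 12.10, against 12.18 to 12.65) and the lowest cholesterol synthesis levels (4.68 to 5.66, against 5.91 to 6.47). The largest gap was searched for after the values were seen. The gap comes from values measured here, so the mice on either side of it were not compared with each other. The reason for it was not tested. The plot against marker levels shows these mice beside the other groups.

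**Figure D3:**
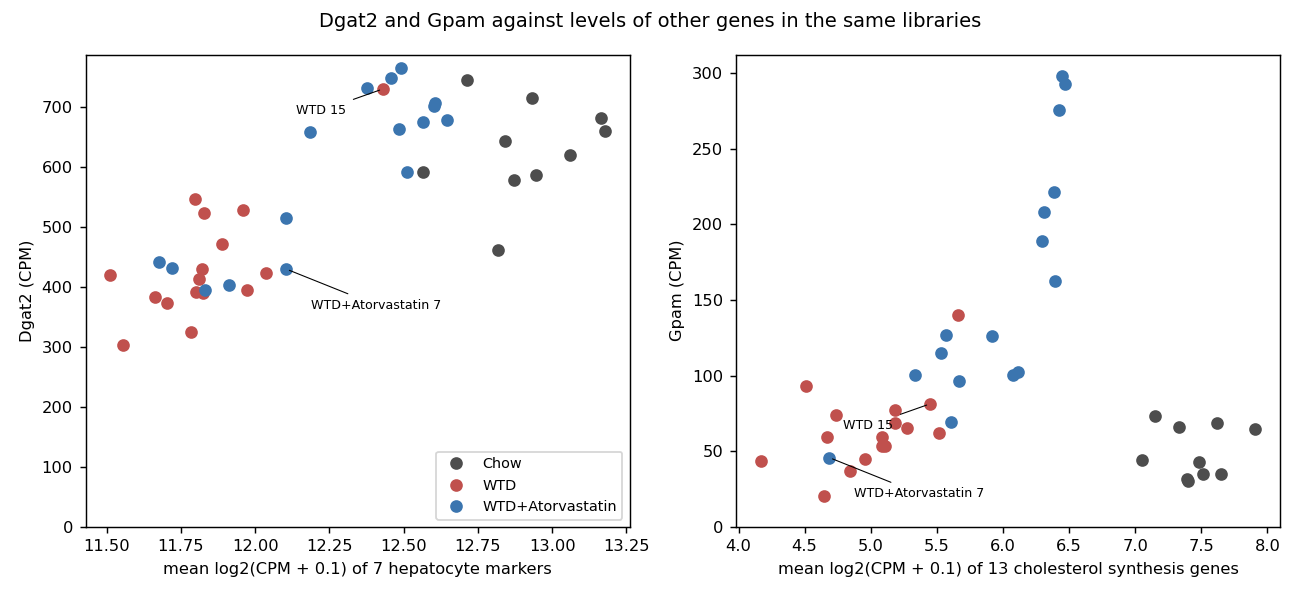
Dgat2 (CPM, left) against the mean log2(CPM + 0.1) of 7 hepatocyte markers, and Gpam (CPM, right) against that of 13 cholesterol synthesis genes, 1 point per mouse, with the 2 libraries that stood apart named. On the left 6 of the 16 treated mice lie among WTD-fed mice, and on the right the treated mice with over 150 CPM of Gpam have a cholesterol synthesis level over 6.

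How the members vary together among mice on 1 diet was asked for all 28 pairs of the 8 counted members in each group, on log2(CPM + 0.1). A pair passed if the adjusted p of both Pearson's r and Spearman's rho was under 0.05. This is looser than the 0.01 used for single genes. In chow-fed mice no pair passed (0 of 28 for Pearson's r and Spearman's rho after adjustment, permutation test, n = 10), although 2 pairs had an unadjusted p under 0.05 for r. In WTD-fed mice Gpam rose with Mttp (r = 0.81, adjusted p = 0.020; rho = 0.84, adjusted p = 0.0031; permutation test, n = 16) and with Lpin1 (r = 0.73, adjusted p = 0.029; rho = 0.76, adjusted p = 0.013; permutation test). Without the 2 mice farthest from the median Gpam level, r was 0.55 with Mttp and 0.73 with Lpin1. Gpam with Lpin1 did not pass without the 2 libraries that stood apart, nor Gpam with Mttp without the 9 that missed weak genes. Over all 16 treated mice 8 of 28 pairs passed, and 4 without the 2 libraries that stood apart. Single values are not given, because the 6 mice below the Dgat2 gap also had the lowest hepatocyte marker and cholesterol synthesis levels. Correlations on either side of the gap are left out because Dgat2 itself defined it.

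The genes whose levels were most like a member's, after group means were removed, were found among 9106 genes over the 42 mice and are given without a test, since the mice share library scaling. Gpam was most like Lactb2 (r = 0.79), Acacb (0.79) and Acly (0.79), and Lpin1 was most like Acacb (0.88), Sc5d (0.86) and Acsl5 (0.85). Acacb and Acly are enzymes of malonyl-CoA and acetyl-CoA production, and Sc5d is a cholesterol synthesis enzyme. Dgat2 was most like Shmt1 (0.88), Hgfac (0.88) and 1300017J02Rik (0.87), Mttp was most like Abcd3 (0.88), Enpep (0.81) and Psmd1 (0.80), and genes much like Agpat3 were Vwa8 (0.78) and Hadha (0.78). Agpat2 was nearest to Nectin1 (0.78), Fkbp4 (0.78) and Psen2 (0.76). The likeness was lowest for Mogat1 (Aldh5a1, 0.63; Clec4g, 0.62; Cyp3a41a, 0.61) and Dgat1 (Cep250, 0.62; Zfp839, 0.62; Bap1, 0.61). For some pairs r was unlike between groups, and whether it differed was not tested. The like genes were picked by their r over these same mice, so their r within a group is no independent check. Treated values include the mice below the Dgat2 gap. Those mice had the lowest hepatocyte marker and cholesterol synthesis levels of the treated group. Dgat2 with 1300017J02Rik was at r = 0.21 in chow-fed and 0.93 in treated mice, and Gpam with Lactb2 at 0.42 and 0.90. Mogat1 with Aldh5a1 was at -0.08 in chow-fed mice, and Dgat1 with Zfp839 at 0.92 in WTD-fed and 0.12 in treated mice. Others were alike in all 3 groups, such as Dgat1 with Cep250 (0.63, 0.62 and 0.61).

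Around the members lie the steps that supply and use their substrates. Fatty acid synthesis genes were the list with the largest median in treated over WTD-fed mice: 5 of 6 were higher, none lower, and the median log2 fold change was 1.07. Among them Acly, which makes cytosolic acetyl-CoA, was at 1.47 ± 0.30 (SE, adjusted p = 0.00060, edgeR), Me1, which supplies NADPH, at 1.02 ± 0.20 (adjusted p = 0.00042) and Acaca at 0.82 ± 0.19 (adjusted p = 0.0024). On the diet against chow 1 of the 6 was called, Scd1 (2.14), named after its values were seen. Of 7 acyl-CoA synthetases, which activate fatty acids, 3 were higher in treated mice (Acsl1, Acsl5 and Slc27a5, at 0.49, 0.57 and 0.57) and 3 lower against 1 higher on the diet. The 3 glycerol-3-phosphate supply genes, Gpd1, Gk and Aqp9, were all lower on the diet in edgeR, with log2 fold changes of -0.34, -0.38 and -0.59, while DESeq2 and limma-voom each called 2 of them. None was called with the statin in edgeR, where 2 had an unadjusted p under 0.05, DESeq2 called 0 and limma-voom 2.

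Paralogs of the members were examined in the same way. None of 7 other glycerolipid acyltransferases (Gpat2, Gpat3, Gpat4, Agpat1, Agpat4, Agpat5 and Mogat2) was called in any of the 3 comparisons, with medians of 0.13 for WTD over chow and -0.12 for treated over WTD-fed mice. At an unadjusted p under 0.05 there were 2, 1 and 1 (WTD over chow, treated over WTD, treated over chow), DESeq2 called 1, 0 and 0, and limma-voom called 2, 1 and 1. With the statin Gpat2 was at 0.43 (adjusted p = 0.12, edgeR), Gpat3 at -0.16 (adjusted p = 0.62) and Agpat4 at -0.16 (adjusted p = 0.75). Gpat4, which does the same step as Gpam in the endoplasmic reticulum, had group medians of 141, 136 and 139 CPM and a fitted log2 fold change of 0.00 ± 0.07 in treated over WTD-fed mice, and was named after its values were seen. Of 6 other phosphatidate phosphatase genes Plpp2 was higher and Plpp3 lower on the diet (0.74 and -0.67), Ctdnep1 was at 0.06 on the diet and -0.11 with the statin (adjusted p = 0.60 and 0.37), and none was called with the statin in edgeR, where 2 had an unadjusted p under 0.05, DESeq2 called 1 and limma-voom 2.

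Mttp works with a set of partners. Of 12 genes of apolipoprotein B assembly and export, 9 were lower and 1 higher in WTD-fed than in chow-fed mice, with a median of -0.54, and 4 were higher and 1 lower in treated than in WTD-fed mice, with a median of 0.22. Tm6sf2, which promotes VLDL lipidation, was at -0.72 ± 0.11 (SE, adjusted p = 1.6e-07, edgeR) on the diet and at 0.46 ± 0.10 with the statin (adjusted p = 0.00053). Apob itself was at -0.26 ± 0.07 on the diet (adjusted p = 0.0035) and at 0.20 ± 0.07 with the statin (adjusted p = 0.032). Mia2, which helps load large cargo for export, was at -0.16 (adjusted p = 0.11) and 0.35 (adjusted p = 0.00063). A1cf, a cofactor of Apob mRNA editing, was at -1.15 and 0.69, whereas Apobec1, the editing enzyme, was at 1.14 and -0.31, called in both. Apob and Apobec1 were named after their values were seen. The 3 genes listed as lumenal triglyceride hydrolases, Ces1d, Ces1g and Aadac, were all lower on the diet (median -0.78) and all higher with the statin (median 0.53).

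In the phospholipid branch, which draws on the same phosphatidate and diacylglycerol, 5 of 9 genes were lower and 1 higher on the diet, and 3 were higher with the statin: Cds2 (0.31), Pcyt2 (0.42) and Pemt (0.35). Of 10 transcriptional regulators, Mlxipl, the carbohydrate-responsive factor ChREBP, was at -1.04 ± 0.13 on the diet (SE, adjusted p = 3.7e-09, edgeR) and at 0.56 ± 0.12 with the statin (adjusted p = 0.00069). Hnf4a was at -0.31 and 0.33 and passed in both. Srebf1 was higher on the diet (0.99 ± 0.17, adjusted p = 3.6e-06), and with the statin it was at 0.42 ± 0.14 (adjusted p = 0.038). The 5 genes tied to PPAR gamma in fatty liver were all higher on the diet, and Plin4 and Fabp4 were lower with the statin (-1.37 and -0.83), where Cidec was at -1.01 (adjusted p = 0.24). The plot of related lists sets these beside the members.

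**Figure D4:**
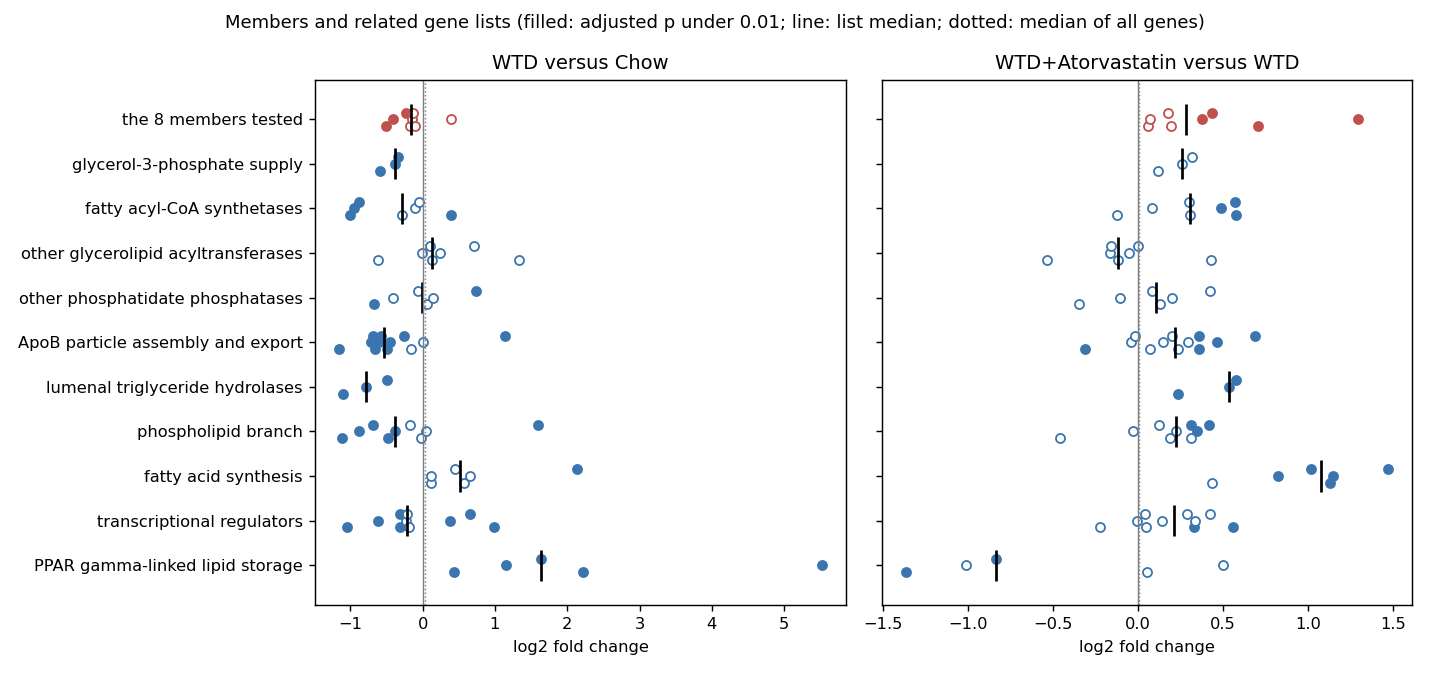
Log2 fold change of each tested gene (points, filled at an adjusted p under 0.01, edgeR) of the members and of 10 related lists, for WTD versus Chow (left) and WTD+Atorvastatin versus WTD (right), with list medians (black lines) and the median of all genes (dotted). The fatty acid synthesis list lies farthest right in the treated comparison. The point at the far right of the left panel is Cidea, which had 0 counts in every chow-fed mouse and at most 1.07 CPM in any, so its fold change has no fixed size.

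Markers of several other cell types, though not of all, moved with the groups. The summed level of 10 macrophage markers (Itgam at 0) was 333 to 498 CPM in chow-fed, 1415 to 3454 in WTD-fed and 1156 to 2275 in treated mice, and 9 of 9 tested were higher on the diet. Stellate cell markers summed to 401 to 658, 1140 to 2619 and 1024 to 2475 CPM, and lipid-associated macrophage markers to 150 to 384, 778 to 2478 and 734 to 1668 CPM. Of 9 stellate markers 6 were called higher on the diet, and with the statin 4 were lower and 1 higher. Mean Acta2, among the stellate markers, was 11.8 CPM in chow-fed and 8.35 in WTD-fed mice. Hepatocyte markers summed to 110674 to 162009, 51565 to 105371 and 60955 to 128245 CPM, and 5 of 7 were higher with the statin. Adipocyte markers summed to 36.7 CPM or less with Lep at 0. Apart from the covariate given above, the part of these shifts in the members' values was not tested. Of markers of other cells, sinusoidal endothelium summed to 235 to 441 CPM over all mice, Kupffer cell markers to 224 to 450 in chow-fed and 825 to 2339 in WTD-fed and treated mice, and cholangiocyte markers to 77.2 to 156 and 182 to 841. Single genes weigh heavily in the last 2 sums. Mean Cd5l was 113 CPM in chow-fed and 979 in WTD-fed mice, where Clec4f was at 161 and 191, and 2 of 5 Kupffer markers were called higher on the diet. Mean Spp1, also in the lipid-associated macrophage list, was 94.1 and 521 CPM, and all 5 cholangiocyte markers were called higher. Neutrophil, T cell and B cell markers reached 19.9, 23.5 and 54.8 CPM at most, and no T cell or B cell marker was called in any comparison.

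Feeding and time of day can move lipid genes, so genes of both were examined. Of 14 tested clock genes 1 was higher and 3 lower on the diet, and none was called with the statin in edgeR, where 4 had an unadjusted p under 0.05, DESeq2 called 0 and limma-voom 5. Hlf, Cry2 and Nr1d1 had the smallest p with the statin, at 0.45, 0.41 and 0.65 (adjusted p = 0.079, 0.074 and 0.15). Of 8 fasting-response genes 1 was higher and 4 lower on the diet, and none was called with the statin, where 4 had an unadjusted p under 0.05, DESeq2 called 0 and limma-voom 2. Among them Pck1, a gluconeogenic enzyme, was at 0.40 with the statin (adjusted p = 0.094, edgeR). With a clock score as covariate the calls of members were the same in all 3 comparisons. The score was centred within each group, so it cannot take up a clock difference between groups. Whether such a difference moved the members was not tested.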

How the data were processed

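Liver RNA of 42 mice was sequenced paired-end from stranded, poly(A)-selected libraries. The authors trimmed reads with Trimmomatic, aligned them with STAR (2.5 per the labels) and deposited HTSeq (0.6.1p1) counts per gene. The counting mode and strand setting were not given in the sources used here. Lines that name no gene were left out: 2.00 to 2.78% had no feature, 5.43 to 6.57% were ambiguous and 4.07 to 5.36% were not uniquely aligned. Genes were filtered with filterByExpr (minimum count 10, total 15), scaled by TMM and tested with edgeR 4.0.16 (quasi-likelihood, all 3 groups in one fit, no covariate, Benjamini-Hochberg adjustment over all genes). Ratios and correlations used log2(CPM + 0.1) and two-sided permutation tests (100000 resamples). DESeq2 1.42.0 and limma 3.58.1 (R 4.3.3) were alternatives. The fits were tested on simulated data. Of each pathway, clock and fasting list, the 3 genes with the smallest p for treated over WTD-fed mice were named, with additions stated beside them. Marker lists are given by their sums. The members and lists were chosen with earlier results of these data known. Mice are separate animals, numbered in accession order. Protein sequences were not used here, and some genes that these rules named are not reported here.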

Additional observations from a re-analysis of the deposited data

How the results depend on the processing

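No paired analysis was possible because replicate numbers only name mice in accession order and the groups hold different mice. With the hepatocyte marker level as a covariate, 0 members were called for WTD versus Chow (3 without it), 0 for treated versus WTD (4 without it) and 4 for treated versus Chow (1 without it). Of all 15574 tested genes 570, 11 and 1349 were called with this covariate. A fold change of at least 2 left 0 and 1 in the first and second comparison. For WTD versus Chow 2 were called with DESeq2, RLE, no filter, a floor of 10 counts per mouse or these 2 groups alone, and for treated versus WTD 5 with limma-voom, without the 2 libraries or at an adjusted p under 0.05, and 3 without the libraries that missed weak genes. For treated versus Chow DESeq2 and a floor of 10 counts per mouse each gave 2, limma-voom gave 3, leaving out the 2 libraries that stood apart 3 and an adjusted p under 0.05 gave 4. Leaving out 1 mouse gave 2 to 3, 4 to 5 and 1 to 3 members, with 2 in the last comparison without Chow replicate 10, WTD replicate 3 or 8 or WTD+Atorvastatin replicate 1, 2 or 3, and 3 without WTD+Atorvastatin replicate 7. Gpam, Lpin1, Dgat2 and Mttp (treated versus WTD) and Agpat2 and Dgat2 (WTD versus Chow) were called in all 42 of these fits, Agpat3 (WTD versus Chow) in 31.

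Under the hepatocyte covariate these log2 fold changes turned sign: for WTD versus Chow Lpin1 0.91, Dgat1 0.020, Dgat2 0.39, Mogat1 0.93 and Mttp 0.23, for treated versus WTD Mogat1 -0.41, and for treated versus Chow Agpat2 0.0041, Agpat3 0.086, Dgat1 0.027, Dgat2 0.44 and Mogat1 0.52. Mogat1 turned for WTD versus Chow with limma-voom (0.44), without the libraries that missed over 20% of weak genes (0.88) and with that share as a covariate (0.25), for treated versus WTD without those libraries (-0.30), and for treated versus Chow in the same 3 settings (0.62, 0.58 and 0.41). Agpat3 for treated versus Chow was at 0.015 with limma-voom. With 1 mouse left out Mogat1 ran from -0.32 to 0.22, from -0.11 to 0.16 and from -0.28 to 0.29 in the 3 comparisons, and Dgat1 for treated versus Chow from -0.086 to 0.011. Correlated pairs in WTD-fed mice went from 2 to 1 without the 2 libraries and to 3 without the libraries that missed weak genes. In the former Gpam with Mttp passed and Gpam with Lpin1 did not (adjusted p of r = 0.067, permutation test). In the latter the pairs were Gpam with Lpin1, Gpam with Dgat2 and Lpin1 with Dgat2. Gpam with Mttp did not pass there (adjusted p of rho = 0.25, permutation test). Over all 16 treated mice 8 pairs passed, 5 without the libraries that missed weak genes and 4 without the 2 libraries. The cause was not tested. The differences in the Dgat2 to Dgat1 ratio kept their direction in the 3 alternatives run for it, a pseudocount of 1 CPM and leaving out either set of libraries.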
